A study of Mus musculus with 46 samples.

Results

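Cadherins and the non-clustered protocadherins are cell surface adhesion proteins, described here across 7 kinds of inhibitory neuron of mouse frontal cortex. The members are the genes whose symbol is Cdh with a number, or Pcdh with a number and at most a letter, with a total of at least 50 counts. This gave 31 of the 23335 genes of the table: 19 cadherins and 12 protocadherins. Another 4 genes of these symbols fell under the minimum, Cdh15 with 44 counts, Cdh16 with 4, Cdh17 with 30 and Cdh24 with 17, and the 59 rows of the clustered Pcdha, Pcdhb and Pcdhg genes were left out.

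The study isolated single fluorescent neurons by hand from young adult wild-type mice that carried recombinase drivers and a red fluorescent reporter, and sequenced RNA after 2 rounds of linear amplification. It holds 584 cells in 46 libraries of 7 to 16 cells from 18 labelled animals. Martinotti cells (dendrite-targeting) came from layers 2/3 of Sst-Flp; CR-Cre; Ai65 females of 35 days (62 cells, 4 libraries, 2 animals), and interneuron-selective cells from Vip-Flp; CR-Cre; Ai65 females of 32 days (63 cells, 4 libraries, 2 animals). CCK basket cells came from Vip-Flp; CCK-Cre; Ai65 males of 39 to 40 days (64 cells, 4 libraries, 2 animals). PV basket cells came from all layers of Pv-iresCre; Ai14 males and females of 58 to 83 days (127 cells, 16 libraries, 4 animals). Chandelier cells, which target the axon initial segment of pyramidal neurons, were labelled with Nkx2.1-CreER; Ai14 and tamoxifen at E17.5, shortly before birth. Deep ones came from layers 5 and 6 of males of 34 days (52 cells, 4 libraries, 2 animals), and upper ones from the border of layers 1 and 2/3 in prelimbic and infralimbic cortex of females of 40 to 58 days (80 cells, 5 libraries, 2 animals; 1 library is labelled Ai15). Long-projecting cells came from Sst-Flp; Nos1-Cre; Ai65 males of 28 to 29 days (136 cells, 9 libraries, 4 animals). Each group is what its driver combination marks at that age, and every group carries a reporter. Upper chandelier animal 14 is labelled 58 days in library 3 but 40 days in libraries 4 and 5. It was kept as 1 replicate, and whether these libraries come from 1 mouse cannot be told from the labels.

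Classical cadherins bind the same or related cadherins on a facing cell in the presence of calcium. Their cytoplasmic tails hold beta-catenin and p120-catenin, and through alpha-catenin they meet the actin cytoskeleton. Type I and type II cadherins differ in how their outermost domains pair. The delta protocadherins are a related group with weaker adhesion and other tails, and several delta-2 members recruit the WAVE complex, which starts actin branching. In the brain these genes are known for patterned expression across neuron types and for roles in axon guidance, synapse formation and cell sorting.

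Libraries held 530927 to 4568242 counts. Of 190 pairs of libraries of a type, 8 agreed closely, with a squared difference 1.22 to 1.72 times that of sampling noise against at least 5.37 times in the others. Each of the 8 paired a PV basket library labelled male with one labelled female, so PV basket animals 7 and 8, and 9 and 10, were each counted as 1 replicate, which left 16 replicates: 4 of long-projecting cells and 2 of every other type. The 584 cells used 16 barcodes, every one of them shared between libraries and none repeated within a library, and no barcode was shared within the 8 pairs. The summed level of 4 GABAergic genes lay between 1698 and 7280.5 CPM (counts scaled to a common library total) in every library. Apart from the 2 types of upper chandelier and long-projecting, and those of Martinotti and interneuron-selective, each type had a flow cell of its own, and sex and age also went with type. These therefore cannot be told apart from type, and fewer cells that express a gene cannot be told apart from less RNA per cell in a library's sum.

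Several libraries stood apart. Interneuron-selective library 3 and long-projecting library 2 held 3805 and 4912 CPM of 9 oligodendrocyte genes, against at most 264 CPM in every other library. Deep chandelier library 4, of 8 cells, had 1918 CPM of Vip, the gene that drives recombinase in the interneuron-selective and CCK basket groups, where the median of the 4 deep libraries was 1.38. It also had 2081 CPM of 4 caudal lineage genes against a median of 282. Upper chandelier library 1 had 1780 CPM of these 4 genes against a median of 77.8. Where a call of a member was lost without one of these libraries, the adjusted p without it is given beside the result. All comparisons were also refitted under 25 alternatives: other scaling, filter, test and dispersion settings, and leaving out each replicate or each of these 4 libraries.

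The genes that drive or mark the groups were checked by library, or by replicate where so stated. Sst lay at 1080 to 1912 CPM in Martinotti and 1963 to 2707 in long-projecting libraries, and at most 10.8 elsewhere. Nos1 lay at 96.8 to 208 CPM in long-projecting libraries and at most 45.4 elsewhere. Vip lay at 2115 to 3089 CPM in interneuron-selective and 3581 to 5118 in CCK basket libraries. Pvalb lay at 778 to 1337 CPM in PV basket libraries and 0 to 553 in deep chandelier libraries. By replicate, the upper chandelier animals had 518 and 325 CPM of Pvalb. Cck, the gene of the CCK-Cre driver, had 1335 and 2591 CPM in CCK basket and 822 and 174 in interneuron-selective replicates. It had 212 and 717 CPM in deep chandelier, 339 and 391 in upper chandelier and 199 and 253 in PV basket replicates. Cck therefore did not mark CCK basket cells alone. Nkx2-1 lay at 48.0 to 108 CPM in upper and 15.0 to 60.2 in deep chandelier libraries, and at most 33.9 elsewhere, so the deep group overlapped other types. Calb2, which encodes the calretinin of the CR-Cre driver, lay at 339 to 659 CPM in interneuron-selective and 33.7 to 196 in Martinotti libraries, and reached 378 in long-projecting ones.

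Joint differences between the 7 types were found for 17 of the 31 members (edgeR's quasi-likelihood test, Benjamini-Hochberg adjusted p under 0.05), where 25.0% of all 15533 genes tested passed. One member, Pcdh12, did not reach the filter on low counts. The count was 16 without interneuron-selective library 3, 17 without deep chandelier library 4, 17 without long-projecting library 2 and 18 without upper chandelier library 1. Members with a type mean of at least 20 CPM numbered 25, and the type with the highest mean held a median of 30.4% of the 7 summed type means (range 21.9% to 62.7%). The same median was 25.8% over the 10921 tested genes at that level, and equal levels would give 14.3%. All replicates of the highest type lay above all other replicates for 12 of 31 members, 38.7%, against 19.4% of all genes tested.

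**Figure D1:**
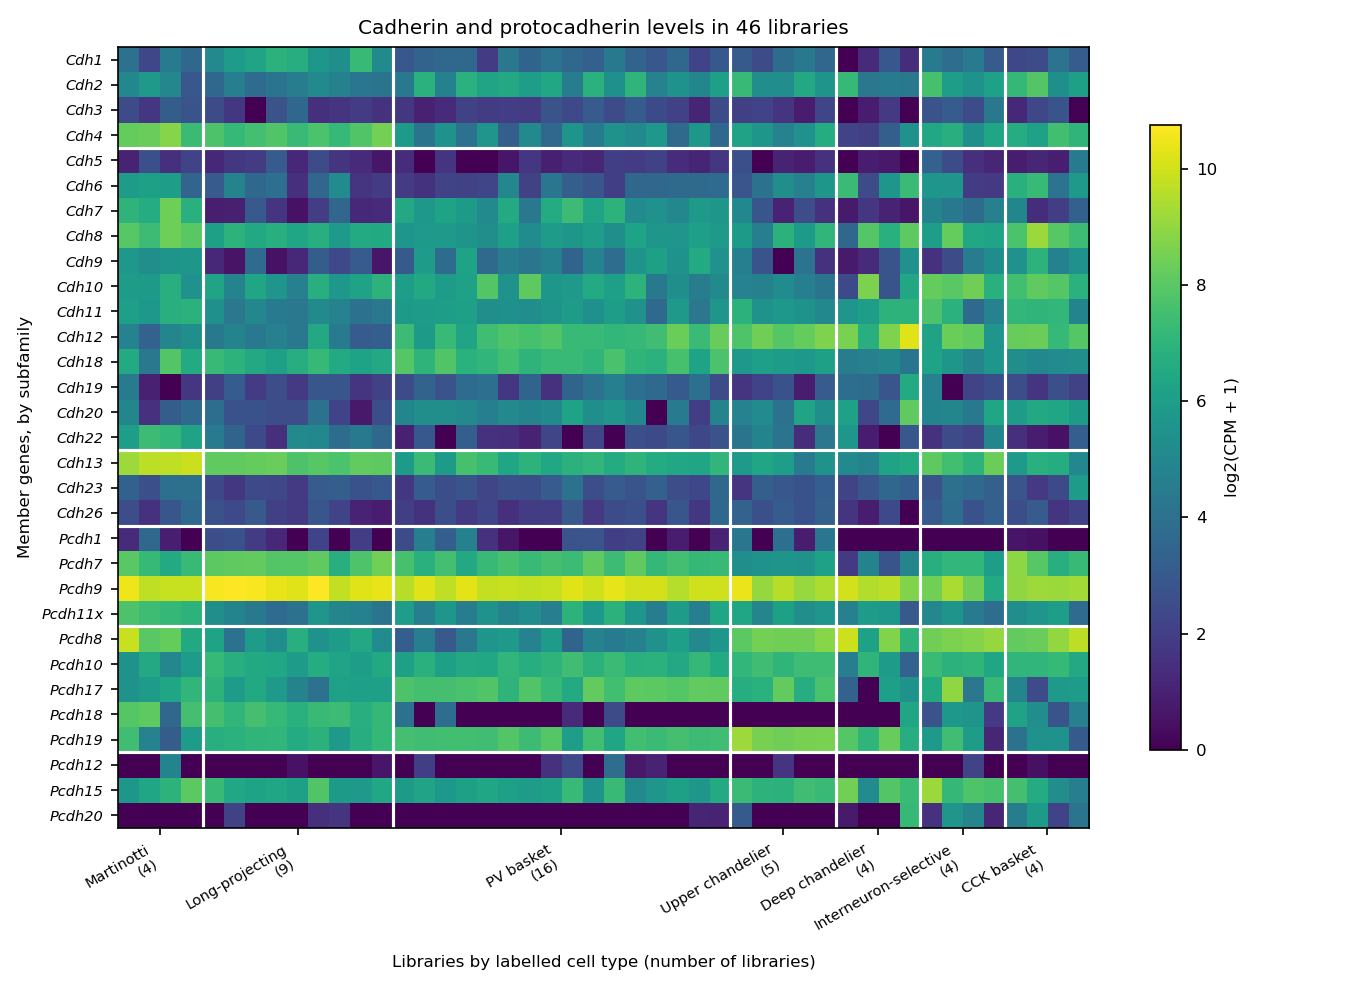
Level of each of the 31 members (rows, grouped by subfamily) in each of the 46 libraries (columns, grouped by cell type), as log2(CPM + 1). Bright blocks that fill 1 type are seen for Cdh13 and Cdh22 in Martinotti cells and Pcdh19 in upper chandelier cells, while Cdh3, Cdh5 and Cdh26 are dark throughout.

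The highest mean fell in CCK basket cells for 8 members, in Martinotti cells for 7, in deep chandelier cells for 5, in interneuron-selective cells for 4, in upper chandelier cells for 3, and in long-projecting and PV basket cells for 2 each. Without deep chandelier library 4 the counts were 2 in deep chandelier and 11 in CCK basket cells, because the highest means of Cdh6, Cdh20 and Pcdh20 then fell in CCK basket cells. Without interneuron-selective library 3 that of Cdh10 fell in CCK basket and that of Pcdh17 in interneuron-selective cells. The members spread over all 7 types in each case, and none of the types had the highest level of most of them.

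Among the type I classical cadherins, Cdh1 and Cdh4 differed between types. Cdh1 encodes E-cadherin, the main adhesion protein of epithelia. Its levels in the 4 long-projecting animals were 50.0, 111, 45.8 and 98.5 CPM. In the other types they were 9.28 and 15.3 CPM in Martinotti, 16.6 and 14.8 in interneuron-selective, 4.23 and 11.9 in CCK basket, 10.4 and 8.84 in PV basket, 0.74 and 4.65 in deep chandelier and 5.45 and 14.1 in upper chandelier replicates. The long-projecting animals were thus all higher than every other replicate, and all 9 long-projecting libraries lay above the other 37. The fitted log2 difference from the mean of the other 6 types was 3.27 ± 0.42 (SE; adjusted p = 0.000135), and it passed under each of the 25 alternatives run. The mean was 76.3 ± 33.3 CPM (SD, n = 4), 7.87-fold that of the other types. For Cdh1, the joint call was lost under type-specific dispersion (adjusted p = 0.0573).

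Cdh4, R-cadherin, was highest in both Sst-driven types. The Martinotti animals had 306 and 289.6 CPM and the long-projecting animals 182, 190.2, 182 and 286 CPM. Levels were 88.3 and 154 CPM in CCK basket, 98.0 and 57.0 in interneuron-selective, 57.3 and 62.5 in upper chandelier, 33.0 and 34.2 in PV basket and 3.33 and 22.6 in deep chandelier replicates. All Martinotti replicates lay above all others, by a small margin over 1 long-projecting animal, and deep chandelier cells were at the low end. Cdh4 was higher in Martinotti cells by 2.23 ± 0.37 on the log2 scale (adjusted p = 0.00346) and in long-projecting cells by 1.81 ± 0.31 (adjusted p = 0.00128), and it was lower in deep chandelier cells, at -2.74 ± 0.55 (adjusted p = 0.00422). The direct difference between Martinotti and long-projecting cells did not pass, at 0.36 ± 0.49 (adjusted p = 0.731). For Cdh4, the deep chandelier call was lost under type-specific dispersion (adjusted p = 0.258).

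Cdh2, N-cadherin, which holds many synaptic junctions together, did not pass the joint test (adjusted p = 0.0798). It was lower in long-projecting cells, at -1.55 ± 0.46 on the log2 scale against the other types (adjusted p = 0.0391), with 16.3, 19.1, 30.3 and 17.2 CPM in the 4 animals. In the other types the replicates ranged from 17.3 to 177 CPM, so the groups overlapped at the low end. This call was lost in 11 of the 16 fits that left out a replicate. Cdh3, P-cadherin, stayed at or under 10.6 CPM in every replicate and did not pass (adjusted p = 0.409).

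Among the type II classical cadherins, 7 of 12 passed the joint test: Cdh7, Cdh8, Cdh10, Cdh12, Cdh18, Cdh20 and Cdh22. Of these, Cdh7 had the widest range between types. Its levels were 113 and 210.2 CPM in the Martinotti animals and 68.1 and 62.9 in the PV basket replicates. They were 23.3 and 17.9 CPM in interneuron-selective, 19.1 and 6.07 in CCK basket, 13.6 and 2.67 in upper chandelier, 1.75, 1.3, 6.32 and 1.35 in long-projecting and 1.48 and 0.846 in deep chandelier replicates. Martinotti cells were highest, PV basket cells second, and each lay clear of all replicates below it. Against the mean of the other 6 types the log2 difference was 4.15 ± 0.50 in Martinotti cells (adjusted p = 0.000232) and 2.68 ± 0.53 in PV basket cells (adjusted p = 0.0116). It was lower in long-projecting cells, at -2.67 ± 0.60 (adjusted p = 0.00848), and in deep chandelier cells, at -3.84 ± 0.92 (adjusted p = 0.011). Both types driven by Sst thus lay far apart, and their direct difference was 5.85 ± 0.77 (adjusted p = 0.000951). For Cdh7, the PV basket call was lost without PV basket animals 7 and 8 (adjusted p = 0.181) and without PV basket animals 9 and 10 (adjusted p = 0.12), and the deep chandelier call was lost without deep chandelier replicate 12 (adjusted p = 0.0723) and under type-specific dispersion (adjusted p = 0.405).

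Cdh22 was high in Martinotti cells, with 118 and 102 CPM in the 2 animals and 63.7, 166, 138 and 72.9 CPM in the 4 libraries. The other types had 13.8, 18.0, 23.1 and 15.8 CPM in long-projecting, 24.8 and 12.3 in upper chandelier, 25.5 and 2.54 in deep chandelier, 3.32 and 14.8 in interneuron-selective, 2.52 and 4.13 in PV basket and 1.41 and 4.4 in CCK basket replicates. Each Martinotti library lay above the other 42, and the type held 62.7% of the summed type means. The log2 difference was 3.61 ± 0.56 (adjusted p = 0.00217) and passed under all 25 alternatives.

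Cdh12 was low in both Sst-driven types. Its levels were 17.2 and 34.7 CPM in the Martinotti and 22.8, 21.5, 59.4 and 7.75 CPM in the long-projecting animals. They were 165 and 196 CPM in PV basket, 214 and 179 in interneuron-selective, 312 and 194 in CCK basket, 306 and 332 in upper chandelier and 254 and 709 in deep chandelier replicates. No replicate of the first 2 types reached the lowest of the other 5. The log2 difference was -2.90 ± 0.62 in Martinotti (adjusted p = 0.0146) and -2.66 ± 0.44 in long-projecting cells (adjusted p = 0.00108). It was 2.33 ± 0.41 in deep chandelier cells (adjusted p = 0.00181), and without library 4, which alone had 1188 CPM, that adjusted p was 0.0056. For Cdh12, the Martinotti call was lost without Martinotti replicate 1 (adjusted p = 0.111), without Martinotti replicate 2 (adjusted p = 0.0762) and under type-specific dispersion (adjusted p = 0.0864), and the deep chandelier call was lost without deep chandelier replicate 12 (adjusted p = 0.0661).

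Cdh18 was highest in PV basket cells. Its levels were 175 and 143 CPM in PV basket, 132, 85.0, 124 and 80.4 in long-projecting and 54.3 and 157 in Martinotti replicates. They were 62.7 and 61.1 CPM in upper chandelier, 61.5 and 37.5 in interneuron-selective, 35.6 and 37.0 in CCK basket and 23.3 and 24.5 in deep chandelier replicates. The PV basket and Martinotti replicates overlapped. The log2 difference was 1.49 ± 0.30 in PV basket cells (adjusted p = 0.0144), 0.91 ± 0.25 in long-projecting cells (adjusted p = 0.0276) and -1.42 ± 0.39 in deep chandelier cells (adjusted p = 0.0222). For Cdh18, the PV basket call was lost without PV basket animals 7 and 8 (adjusted p = 0.308) and without PV basket animals 9 and 10 (adjusted p = 0.12), and the long-projecting call was lost under 6 of the 25 alternatives (adjusted p up to 0.153). The deep chandelier call was lost without deep chandelier replicate 11 (adjusted p = 0.0872), without deep chandelier replicate 12 (adjusted p = 0.0800) and under type-specific dispersion (adjusted p = 0.548).

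Cdh8 was higher in CCK basket cells and Cdh10 in interneuron-selective cells, both marked by Vip-Flp. For Cdh8, a cadherin known for matching of neurons with their partners in sensory circuits, the CCK basket animals had 342 and 207 CPM. The others had 202 and 292 CPM in Martinotti, 122 and 174 in deep chandelier, 193 and 80.2 in interneuron-selective, 95.2, 95.5, 84.8 and 92.5 in long-projecting, 33.3 and 105 in upper chandelier and 50.4 and 58.5 in PV basket replicates. CCK basket and Martinotti replicates overlapped. The log2 difference in CCK basket cells was 1.42 ± 0.33 (adjusted p = 0.0205), and without animal 5 its adjusted p was 0.288.

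Cdh10 had 273 and 245 CPM in interneuron-selective and 220.0 and 178 CPM in CCK basket animals. It had 193 and 37.0 CPM in deep chandelier, 107 and 56.4 in PV basket, 59.3 and 70.6 in Martinotti, 55.8, 36.4, 81.8 and 94.8 in long-projecting and 25.7 and 24.0 in upper chandelier replicates. Both interneuron-selective animals lay above all other replicates, and 1 deep chandelier animal reached the CCK basket range. The log2 difference in interneuron-selective cells was 1.53 ± 0.42 (adjusted p = 0.0352). For Cdh10, the interneuron-selective call was lost under 10 of the 25 alternatives (adjusted p up to 0.171), among them without interneuron-selective library 3 (adjusted p = 0.171) and without deep chandelier library 4 (adjusted p = 0.135), and the joint call was lost without upper chandelier replicate 13 (adjusted p = 0.0608), without upper chandelier replicate 14 (adjusted p = 0.0648), under type-specific dispersion (adjusted p = 0.0527) and without deep chandelier library 4 (adjusted p = 0.124).

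Cdh20 was low in long-projecting cells. The 4 animals had 9.14, 4.77, 10.1 and 2.46 CPM, and the Martinotti animals 14.6 and 10.1 CPM. Levels were 71.8 and 69.3 CPM in CCK basket, 38.5 and 115 in deep chandelier, 33.0 and 46.4 in upper chandelier, 29.1 and 44.3 in interneuron-selective and 31.5 and 25.8 in PV basket replicates. By replicate, both Sst-driven types lay below all others. Single libraries overlapped, with 29.2 CPM in Martinotti library 1 against 3.83 in deep chandelier library 2 and 2.88 in PV basket library 15. On the log2 scale the difference was -2.46 ± 0.45 in long-projecting cells (adjusted p = 0.0023), and 1.57 ± 0.44 in CCK basket cells (adjusted p = 0.0494). In deep chandelier cells it was 1.84 ± 0.43 (adjusted p = 0.0100), and library 4 alone had 278 CPM. For Cdh20, the CCK basket call was lost under 15 of the 25 alternatives (adjusted p up to 0.208), among them without interneuron-selective library 3 (adjusted p = 0.0791) and without long-projecting library 2 (adjusted p = 0.0568), and the deep chandelier call was lost without deep chandelier replicate 12 (adjusted p = 0.278), under type-specific dispersion (adjusted p = 0.124) and without deep chandelier library 4 (adjusted p = 0.715).

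The other 5 type II members did not pass the joint test. Cdh9, known for specifying synapses of hippocampal mossy fibres, was lower in long-projecting cells, with 2.53, 0.867, 6.32 and 4.43 CPM and a log2 difference of -2.61 ± 0.77 (adjusted p = 0.0378). Cdh11 was also lower there, with 30.0, 19.7, 30.7 and 17.0 CPM and -1.55 ± 0.46 (adjusted p = 0.0393). For Cdh9, the long-projecting call was lost under 11 of the 25 alternatives (adjusted p up to 0.119). For Cdh11, the long-projecting call was lost under 11 of the 25 alternatives (adjusted p up to 0.127), among them without long-projecting library 2 (adjusted p = 0.0584). Cdh19, known from cells of the Schwann lineage, was higher in deep chandelier cells by 2.48 ± 0.59 (adjusted p = 0.0103), with library values of 13.6, 13.0, 6.2 and 95.5 CPM. The fourth of these libraries stood far above the rest. For Cdh19, the deep chandelier call was lost without deep chandelier replicate 12 (adjusted p = 0.216), under type-specific dispersion (adjusted p = 0.118) and without deep chandelier library 4 (adjusted p = 0.263). Cdh6 ranged from 2.5 to 129 CPM with wide spread within types (adjusted p = 0.0662). Cdh5, VE-cadherin of blood vessel walls, stayed at or under 10.7 CPM in every replicate, and the 6 endothelial marker genes summed to at most 104 CPM in every library.

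Of the 3 remaining cadherins, Cdh13 differed between types with the lowest adjusted p of all members (4.33e-05). It encodes T-cadherin, which is held to the membrane by a lipid anchor and has no cytoplasmic tail. Its levels were 708 and 909 CPM in the Martinotti animals and 283, 262, 228 and 279 CPM in the long-projecting animals. The other types had 218 and 207 CPM in interneuron-selective, 102 and 107 in PV basket, 76.5 and 65.7 in CCK basket, 72.4 and 41.6 in upper chandelier and 30.3 and 80.2 in deep chandelier replicates. By replicate, the order of the first 4 types was Martinotti, long-projecting, interneuron-selective and PV basket with no overlap between them. The last 3 overlapped. By library, interneuron-selective cells ran from 122 to 322 CPM. They thus overlapped long-projecting libraries (206 to 311 CPM) and PV basket libraries (57.0 to 196 CPM). All 4 Martinotti libraries, at 581, 818, 850.0 and 958 CPM, lay above the other 42. The fitted difference on the log2 scale was 2.89 ± 0.23 in Martinotti cells (adjusted p = 9.57e-06) and 1.16 ± 0.20 in long-projecting cells (adjusted p = 0.00169). It was -1.61 ± 0.33 in upper (adjusted p = 0.0228) and -1.34 ± 0.32 in deep chandelier cells (adjusted p = 0.0107). For Cdh13, the upper chandelier call was lost without PV basket animals 7 and 8 (adjusted p = 0.0531), without PV basket animals 9 and 10 (adjusted p = 0.0505), without upper chandelier replicate 13 (adjusted p = 0.0743) and without upper chandelier replicate 14 (adjusted p = 0.373), and the deep chandelier call was lost without deep chandelier replicate 11 (adjusted p = 0.0997) and under type-specific dispersion (adjusted p = 0.342).

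The other two were low in all types. Cdh23, a component of the tip links of hair cells, had 32.0 CPM in 1 CCK basket animal and at most 14.5 CPM elsewhere (joint adjusted p = 0.405). Cdh26 stayed at or under 10.8 CPM in every replicate (joint adjusted p = 0.645).

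**Figure D2:**
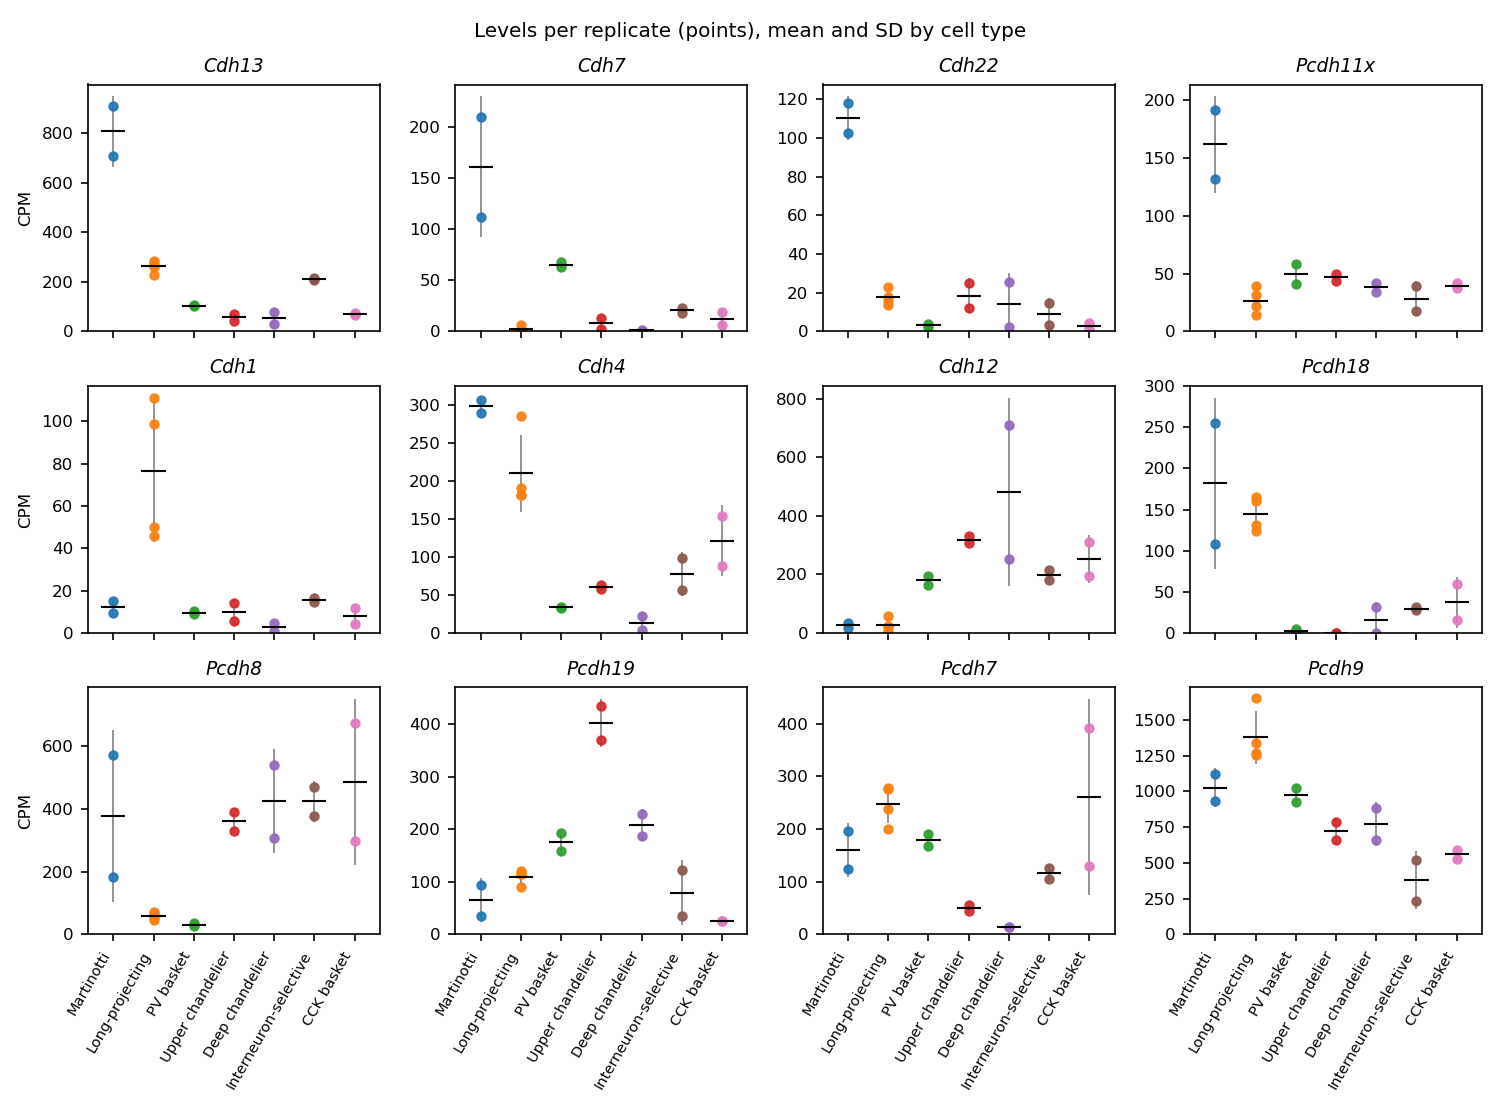
Level in CPM (vertical axes, linear, from 0) of 12 members in the 16 replicates (points), by cell type; black bars are means and grey lines are 1 SD either way, with 4 replicates of long-projecting cells and 2 of each other type. The Martinotti points of Cdh13, Cdh22 and Pcdh11x and the long-projecting points of Cdh1 lie above all others, and both Sst-driven types lie below the rest for Cdh12.

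Of the 4 delta-1 protocadherins, 3 passed the joint test. Pcdh9 had 1653, 1270, 1341 and 1258 CPM in the long-projecting animals. It had 1122 and 930.3 CPM in Martinotti, 928 and 1024 in PV basket, 882 and 663 in deep chandelier, 786 and 659.5 in upper chandelier, 528 and 594 in CCK basket and 524 and 237 in interneuron-selective replicates. All long-projecting animals were above all other replicates, and both interneuron-selective animals were below all others. On the log2 scale the difference was 1.06 ± 0.16 in long-projecting cells (adjusted p = 0.000509) and -1.44 ± 0.25 in interneuron-selective cells (adjusted p = 0.0036), and both passed under all 25 alternatives.

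Pcdh7 was low in chandelier cells. The deep chandelier animals had 14.6 and 14.8 CPM and the upper ones 43.9 and 55.9 CPM. Levels were 276, 237, 201 and 278 CPM in long-projecting, 393 and 129.8 in CCK basket, 167 and 191 in PV basket, 196 and 124 in Martinotti and 127 and 106 in interneuron-selective replicates. No chandelier replicate reached the lowest of the other types. The fitted difference on the log2 scale was -3.08 ± 0.43 in deep chandelier cells (adjusted p = 0.000456), and that in upper chandelier cells, -1.39 ± 0.37, did not pass (adjusted p = 0.0814). It was higher in long-projecting cells, by 1.51 ± 0.24 (adjusted p = 0.000638), and in CCK basket cells, by 1.58 ± 0.29 (adjusted p = 0.00523). For Pcdh7, the deep chandelier call was lost under type-specific dispersion (adjusted p = 0.186), and the CCK basket call was lost without CCK basket replicate 5 (adjusted p = 0.436) and under type-specific dispersion (adjusted p = 0.0552).

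Pcdh11x, on the X chromosome, had 192 and 132 CPM in the Martinotti animals. It had 41.0 and 58.3 CPM in PV basket, 43.6 and 50.2 in upper chandelier, 41.7 and 37.9 in CCK basket, 42.2 and 34.5 in deep chandelier, 39.0 and 17.9 in interneuron-selective and 31.7, 14.1, 39.2 and 21.8 in long-projecting replicates. By replicate, Martinotti cells stood above all others, and the remaining 6 types ran from 14.1 to 58.3 CPM. By library, PV basket library 9, at 125 CPM, lay above the lowest Martinotti library, at 123 CPM. On the log2 scale the difference was 2.08 ± 0.34 (adjusted p = 0.00318). For Pcdh11x, the Martinotti call was lost without Martinotti replicate 1 (adjusted p = 0.061), and the joint call was lost without Martinotti replicate 1 (adjusted p = 0.0909). The interneuron-selective cells, also from females and on the same flow cell, were lower than Martinotti cells, at 2.68 ± 0.56 for Martinotti minus interneuron-selective (adjusted p = 0.0197). Pcdh1 was at or under 11.2 CPM in every replicate, with no count in deep chandelier and interneuron-selective cells, where the floor of 3 counts over a type is 0.404 and 0.968 CPM (joint adjusted p = 0.0535).

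Among the delta-2 protocadherins, Pcdh8, Pcdh18 and Pcdh19 passed the joint test. Pcdh8, also called arcadlin, is induced by neuronal activity and known for internalising N-cadherin. Its levels were 27.3 and 35.4 CPM in PV basket replicates and 47.3, 72.9, 51.2 and 65.8 CPM in long-projecting animals. They were 297 and 671 CPM in CCK basket, 540.0 and 308 in deep chandelier, 376 and 469.5 in interneuron-selective, 570.2 and 184 in Martinotti and 330.2 and 390.0 in upper chandelier replicates. By replicate, PV basket cells were lowest, long-projecting cells next, and the other 5 types overlapped above them. Single libraries were not so separate. Deep chandelier library 2 had 69.7 CPM and Martinotti library 4 had 92.0 CPM, where long-projecting libraries reached 107 CPM. The fitted difference on the log2 scale was -3.29 ± 0.51 in PV basket cells (adjusted p = 0.00269) and -2.08 ± 0.34 in long-projecting cells (adjusted p = 0.00102). It was 1.44 ± 0.35 in CCK basket (adjusted p = 0.0245) and 1.39 ± 0.35 in deep chandelier cells (adjusted p = 0.0145). For Pcdh8, the PV basket call was lost without PV basket animals 7 and 8 (adjusted p = 0.0994) and without PV basket animals 9 and 10 (adjusted p = 0.0637), and the CCK basket call was lost without CCK basket replicate 6 (adjusted p = 0.54). The deep chandelier call was lost without deep chandelier replicate 11 (adjusted p = 0.263) and under type-specific dispersion (adjusted p = 0.208).

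Pcdh19, the X-linked gene of a form of epilepsy with intellectual disability, was highest in upper chandelier cells. The 2 animals had 435 and 371 CPM and the 5 libraries 586, 373, 338, 376 and 385 CPM. Levels were 187 and 230.2 CPM in deep chandelier, 193 and 158 in PV basket, 114, 116, 90.4 and 121 in long-projecting, 123 and 35.3 in interneuron-selective, 94.5 and 35.9 in Martinotti and 26.3 and 24.9 in CCK basket replicates. All 5 upper chandelier libraries lay above the other 41. On the log2 scale the difference was 2.06 ± 0.33 in upper (adjusted p = 0.00526) and 1.29 ± 0.35 in deep chandelier cells (adjusted p = 0.0193), and -2.39 ± 0.47 in CCK basket cells (adjusted p = 0.00754). For Pcdh19, the upper chandelier call was lost without upper chandelier replicate 13 (adjusted p = 0.104), without upper chandelier replicate 14 (adjusted p = 0.0768) and without interneuron-selective library 3 (adjusted p = 0.107), and the deep chandelier call was lost without deep chandelier replicate 11 (adjusted p = 0.0636), without deep chandelier replicate 12 (adjusted p = 0.0889), under type-specific dispersion (adjusted p = 0.124) and without interneuron-selective library 3 (adjusted p = 0.129). The CCK basket call was lost without CCK basket replicate 5 (adjusted p = 0.0726), without CCK basket replicate 6 (adjusted p = 0.0783) and without interneuron-selective library 3 (adjusted p = 0.124), and the joint call was lost without interneuron-selective library 3 (adjusted p = 0.0572). Without upper chandelier library 1 the upper chandelier value was 0.0099.

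Pcdh18 was low or uncounted in several types. It had 255 and 109 CPM in Martinotti and 165, 131, 161 and 124 CPM in long-projecting animals. It had 59.4 and 15.5 CPM in CCK basket, 31.6 and 27.4 in interneuron-selective, 0 and 31.1 in deep chandelier and 5.27 and 0.472 in PV basket replicates. In upper chandelier cells there was no count in either animal, which allows up to 0.426 CPM (3 counts over the type; counting error only). The Sst-driven replicates all lay above all others, and the Martinotti mean was at least 427.5-fold higher than the upper chandelier level, taken at that floor. Adjusted p was 0.00781 for Martinotti, 0.00177 for long-projecting and 0.0435 for upper chandelier cells. Of the 4 deep chandelier libraries, library 4 held all counts, at 80.7 CPM. Martinotti library 3 had 10.7 CPM, where the others of its type had 189 to 268 CPM. Of the 42 libraries of other types, 17 lay above it. For Pcdh18, the Martinotti call was lost without Martinotti replicate 1 (adjusted p = 0.0763), and the upper chandelier call was lost under 15 of the 25 alternatives (adjusted p up to 1.00), among them without interneuron-selective library 3 (adjusted p = 0.0754) and without deep chandelier library 4 (adjusted p = 1.00).

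Pcdh10 and Pcdh17 did not pass the joint test. Pcdh10, known for axon growth in the forebrain, had 164 and 159 CPM in upper chandelier animals and 40.3 to 139 CPM elsewhere (adjusted p = 0.109), so both upper chandelier replicates lay above all others. Pcdh17 had 194 and 251 CPM in PV basket and 324 and 77.0 CPM in interneuron-selective replicates, down to 4.81 and 57.8 in deep chandelier animals (adjusted p = 0.114). The interneuron-selective animals lay on either side of the PV basket replicates.

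The remaining protocadherins were Pcdh15, Pcdh20 and Pcdh12. Pcdh15, the partner of Cdh23 in hair cell tip links, ranged from 30.8 to 329 CPM and did not pass (adjusted p = 0.152). Pcdh20 was detected mainly in the Vip-Flp types, with 35.3 and 10.3 CPM in CCK basket and 27.4 and 16.9 CPM in interneuron-selective animals. It had 0.37 and 56.1 CPM in deep chandelier, 2.12 and 0 in upper chandelier, 1.36, 0, 1.9 and 0 in long-projecting and 0 and 0.354 in PV basket replicates, and no count in Martinotti cells, which allows up to 0.362 CPM. The joint adjusted p was 0.0312. The deep chandelier level came from library 4, at 146 CPM, while the other 3 had at most 0.715 CPM. The deep chandelier call (adjusted p = 0.0123) turned to the opposite direction without that library, with an adjusted p of 1. For Pcdh20, the CCK basket call was lost under 14 of the 25 alternatives (adjusted p up to 0.33), among them without interneuron-selective library 3 (adjusted p = 0.053), and the joint call was lost under 5 of the 25 alternatives (adjusted p up to 0.189). Pcdh12, known from blood vessels, had its highest mean, 6.25 CPM, in Martinotti cells, all of it in library 3, and was not tested.

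**Figure D3:**
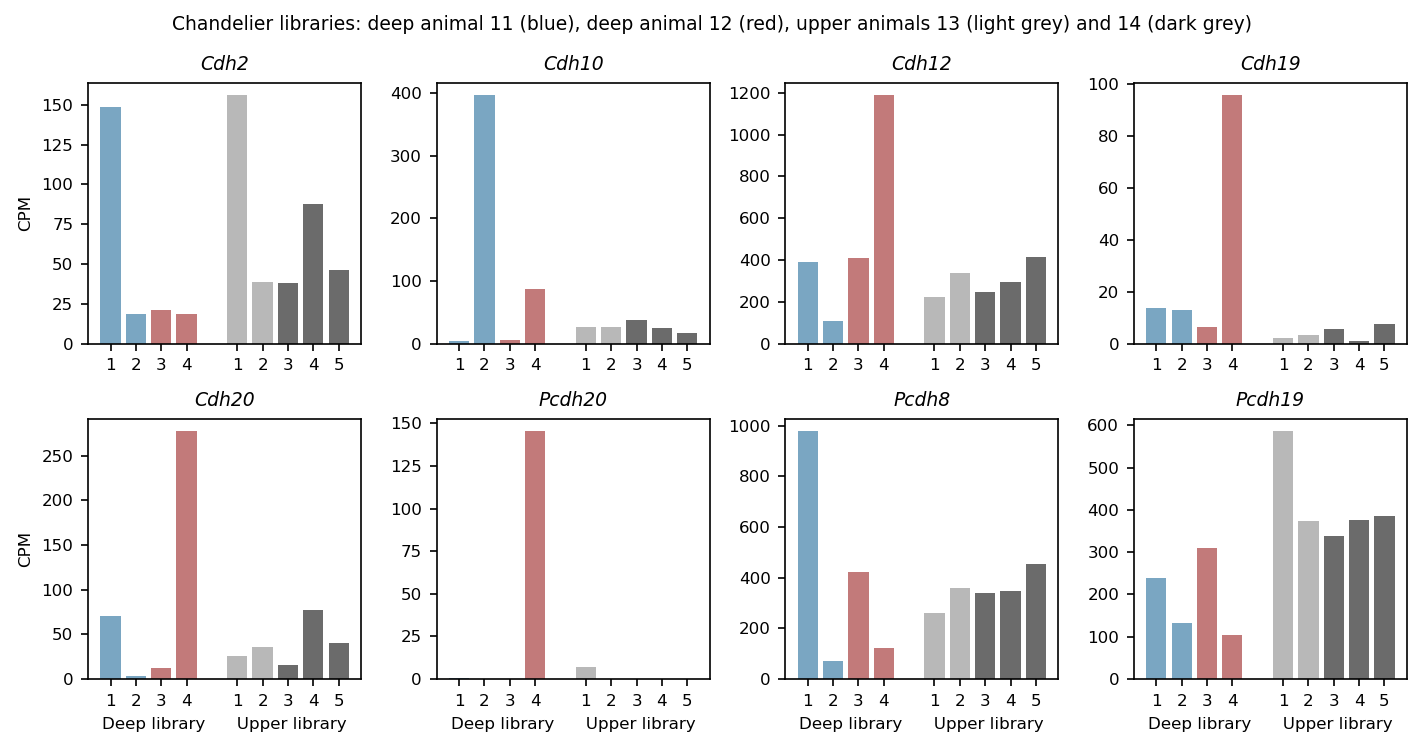
Level in CPM (vertical axes, linear, from 0) of 8 members in the 4 deep and 5 upper chandelier libraries (bars, 1 library each; colours mark the animal). Deep library 4 stands above the other 3 deep libraries for Cdh12, Cdh19, Cdh20 and Pcdh20, deep library 1 for Cdh2 and Pcdh8, and deep library 2 for Cdh10, while the 5 upper libraries of Pcdh19 all lie above the deep ones.

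Each type was then compared with the mean of the other 6, where fitted log2 differences average the others on the log scale and so can exceed the ratio of mean CPM. In long-projecting cells 14 of 31 members were called, where 13.1% of all genes were: 7 were higher (Cdh1, Cdh4, Cdh13, Cdh18, Pcdh7, Pcdh9 and Pcdh18) and 7 lower (Cdh2, Cdh7, Cdh9, Cdh11, Cdh12, Cdh20 and Pcdh8). All genes called there split into 1508 higher and 528 lower. In deep chandelier cells 11 members were called, where 19.1% of all genes were: 6 higher (Cdh12, Cdh19, Cdh20, Pcdh8, Pcdh19 and Pcdh20) and 5 lower (Cdh4, Cdh7, Cdh13, Cdh18 and Pcdh7). This count was 8 without library 4, and 1 when the spread was set for each type on its own. Over all genes 3256 and 469 were called there, against 2967 in the reported fit.

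In Martinotti cells 7 members were called, where 5.60% of all genes were: 6 higher (Cdh4, Cdh7, Cdh13, Cdh22, Pcdh11x and Pcdh18), with Cdh12 lower. In CCK basket cells 6 were called, where 6.30% of all genes were: 5 higher (Cdh8, Cdh20, Pcdh7, Pcdh8 and Pcdh20), with Pcdh19 lower. The CCK basket count was 3 without interneuron-selective library 3 and 1 without CCK basket animal 5.

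In PV basket cells 3 were called, where 3.89% of all genes were: Cdh7 and Cdh18 higher and Pcdh8 lower. None remained when either PV basket replicate was left out. In upper chandelier cells 3 were called, where 1.91% of all genes were: Pcdh19 higher, Cdh13 and Pcdh18 lower. That count was 1 without interneuron-selective library 3 and 0 without either animal. In interneuron-selective cells 2 were called, where 10.0% of all genes were: Cdh10 higher and Pcdh9 lower.

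**Figure D4:**
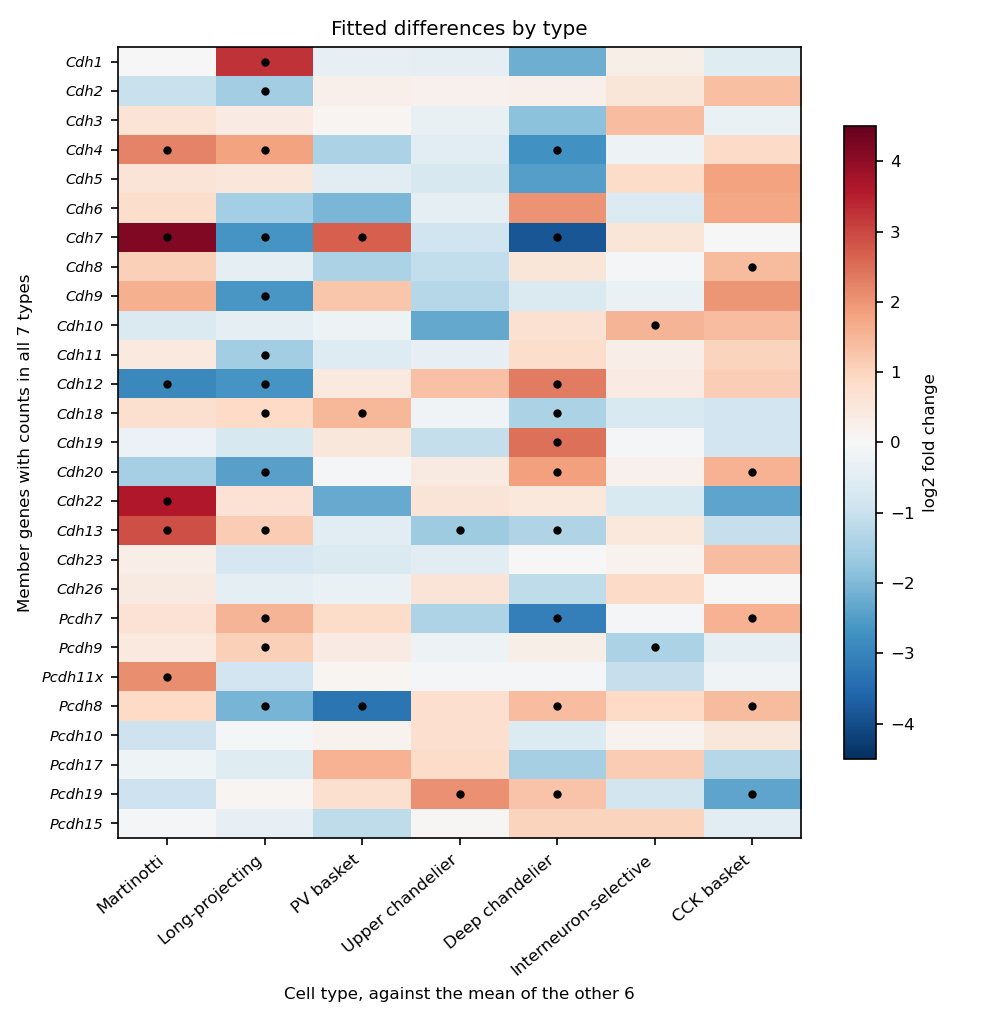
Fitted log2 fold change (colour, red higher and blue lower) of the 27 tested members with counts in all 7 types (rows), for each type against the mean of the other 6 (columns). Dots mark an adjusted p under 0.05; the dots are most numerous in the long-projecting and deep chandelier columns, and Cdh7 reaches both ends of the scale.

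Pairs of types were compared directly. Martinotti and long-projecting cells, both marked through Sst, differed in 5 members, where 3.91% of all genes were called, and each was higher in Martinotti cells: Cdh7, Cdh9, Cdh13, Pcdh8 and Pcdh11x. For Pcdh8 the difference was 2.56 ± 0.43 on the log2 scale (adjusted p = 0.00492), and for Pcdh11x 2.51 ± 0.44 (adjusted p = 0.00594). For Cdh13 it was 1.48 ± 0.31 (adjusted p = 0.0174) and for Cdh9 3.61 ± 0.95 (adjusted p = 0.04999, just under the threshold). For Cdh9, the Martinotti minus long-projecting call was lost under 14 of the 25 alternatives (adjusted p up to 0.156), among them without interneuron-selective library 3 (adjusted p = 0.0596) and without long-projecting library 2 (adjusted p = 0.0567). For Cdh13, the Martinotti minus long-projecting call was lost without Martinotti replicate 2 (adjusted p = 0.138) and without long-projecting replicate 17 (adjusted p = 0.0555). For Pcdh8, the Martinotti minus long-projecting call was lost without Martinotti replicate 1 (adjusted p = 0.0943). Martinotti and interneuron-selective cells, which share a flow cell, a driver (CR-Cre) and sex, differed in 4 members, where 3.09% of all genes were called. Pcdh9 was higher in Martinotti cells by 1.60 ± 0.30 (adjusted p = 0.0118), Cdh13 by 2.06 ± 0.39 (adjusted p = 0.0118), and Pcdh11x as given above. Cdh12 was lower, at -2.81 ± 0.69 (adjusted p = 0.0422). None of these 4 passed when interneuron-selective animal 4 was left out. For Cdh12, the Martinotti minus interneuron-selective call was lost under 12 of the 25 alternatives (adjusted p up to 0.212), among them without interneuron-selective library 3 (adjusted p = 0.144).

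Upper chandelier and long-projecting cells also share a flow cell. They differed in 9 members, where 4.08% of all genes were called. Higher in upper chandelier cells were Cdh12 by 3.41 ± 0.54 (adjusted p = 0.00233), Cdh20 by 2.46 ± 0.56 (adjusted p = 0.0221), Pcdh8 by 2.42 ± 0.43 (adjusted p = 0.00485) and Pcdh19 by 1.69 ± 0.42 (adjusted p = 0.0356). Lower were Cdh1, at -3.16 ± 0.82 (adjusted p = 0.044), Cdh13, at -2.38 ± 0.37 (adjusted p = 0.00185), Pcdh7, at -2.49 ± 0.43 (adjusted p = 0.00395), Pcdh9, at -1.10 ± 0.27 (adjusted p = 0.0324), and Pcdh18 (adjusted p = 0.00932). Sex and age differed between these 2 types. Only 1 of the 9 was called without upper chandelier animal 14, and 6 without interneuron-selective library 3. For Cdh1, the upper chandelier minus long-projecting call was lost under 11 of the 25 alternatives (adjusted p up to 0.368), among them without interneuron-selective library 3 (adjusted p = 0.0553), without deep chandelier library 4 (adjusted p = 0.0588) and without long-projecting library 2 (adjusted p = 0.0505). For Pcdh19, the upper chandelier minus long-projecting call was lost under 11 of the 25 alternatives (adjusted p up to 0.314), among them without interneuron-selective library 3 (adjusted p = 0.314), without deep chandelier library 4 (adjusted p = 0.0548) and without upper chandelier library 1 (adjusted p = 0.055). For Pcdh9, the upper chandelier minus long-projecting call was lost under 8 of the 25 alternatives (adjusted p up to 0.331), among them without interneuron-selective library 3 (adjusted p = 0.219).

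Upper and deep chandelier cells, which share the driver and reporter, differed in 0 members by edgeR, where 2.83% of all genes were called. At an unadjusted p under 0.05 there were 12 members. DESeq2 called 7 members, and 2100 of all 15533 genes, where edgeR called 440. Interneuron-selective and CCK basket cells, which share Vip-Flp and the reporter, also differed in 0 members, where 1.35% of all genes were called. Here 6 members had an unadjusted p under 0.05. DESeq2 called 2 members, and 1422 of all genes, where edgeR called 209. These counts do not show that the members have the same levels in each pair.

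The 5 types whose neurons carry Lhx6 (Martinotti, PV basket, both chandelier and long-projecting), a gene of the medial ganglionic eminence, were set against the 2 Vip-Flp types. The difference passed for 7 members, where 10.4% of all genes did. Higher in the former were Cdh18 by 0.93 ± 0.28 (adjusted p = 0.0491), Pcdh9 by 1.13 ± 0.18 (adjusted p = 0.00134) and Pcdh19 by 1.94 ± 0.34 (adjusted p = 0.00233). Lower were Cdh10, at -1.75 ± 0.34 (adjusted p = 0.00524), Pcdh8, at -1.41 ± 0.28 (adjusted p = 0.00654), Pcdh7, at -0.89 ± 0.25 (adjusted p = 0.0328), and Pcdh20 (adjusted p = 0.0128). For Cdh18, the lineage call was lost under 18 of the 25 alternatives (adjusted p up to 0.281), among them without interneuron-selective library 3 (adjusted p = 0.0729) and without long-projecting library 2 (adjusted p = 0.0533). For Pcdh7, the lineage call was lost under 10 of the 25 alternatives (adjusted p up to 0.365), among them without interneuron-selective library 3 (adjusted p = 0.101). For Pcdh8, the lineage call was lost without CCK basket replicate 6 (adjusted p = 0.0585). The 5 types were not alike for Pcdh8: the 4 chandelier replicates had 308 to 540 CPM and the 2 PV basket replicates 27.3 and 35.4 CPM. For Pcdh7 the chandelier replicates had 14.6 to 55.9 CPM, the rest of the 5 types 124 to 278 and the Vip-Flp types 106 to 393. Cdh18 in deep chandelier replicates, 23.3 and 24.5 CPM, lay below the Vip-Flp types (35.6 to 61.5). Martinotti replicates of Pcdh19 (94.5 and 35.9 CPM) and deep chandelier animal 11 for Cdh10 (193 CPM) lay within the Vip-Flp ranges.

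Several members are neighbours in the genome. By the gene order of RefSeq (GRCm38.p6), Cdh6, Cdh9, Cdh10, Cdh12 and Cdh18 follow each other on chromosome 15 with at most 1 other protein-coding gene between 2 of them. Pcdh8, Pcdh17, Pcdh20 and Pcdh9 follow each other on chromosome 14 with at most 2. The 5 neighbours on chromosome 15 had their highest means in deep chandelier (Cdh6 and Cdh12), CCK basket (Cdh9), interneuron-selective (Cdh10) and PV basket cells (Cdh18). Cdh6 was highest in CCK basket cells, as Cdh9 was, without deep chandelier library 4, and so was Cdh10 without interneuron-selective library 3. Over all members there were 14 neighbouring pairs with at most 10 protein-coding genes between them, and 2 of these shared the type with the highest mean (Cdh8 with Cdh11, and Cdh11 with Cdh5). This count was 3 without either of those libraries. How many pairs would share a type without any link between neighbours was not computed. The CCK basket mean of Cdh5 rested on library 4, at 20.0 CPM, where the others had 0.761 to 1.23 CPM. Neither Cdh5 nor Cdh11 passed the joint test.

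The 3 neighbours Pcdh8, Pcdh17 and Pcdh20 are shown by the 250 bases before their annotated starts, because no other member lies between them and their order of types is not the same: PV basket cells had the lowest mean of Pcdh8, 31.3 CPM, the highest of Pcdh17, 222 CPM, and 0.177 CPM of Pcdh20. The windows come from RefSeq, GRCm38.p6, read 5′ to 3′ on the gene's strand: chr14:79771313-79771562 on the minus strand for Pcdh8, chr14:84443313-84443562 on the plus strand for Pcdh17 and chr14:88471397-88471646 on the minus strand for Pcdh20. No annotated exon overlaps them. Capitals mark TATA boxes, GC boxes and E-boxes.
Pcdh8: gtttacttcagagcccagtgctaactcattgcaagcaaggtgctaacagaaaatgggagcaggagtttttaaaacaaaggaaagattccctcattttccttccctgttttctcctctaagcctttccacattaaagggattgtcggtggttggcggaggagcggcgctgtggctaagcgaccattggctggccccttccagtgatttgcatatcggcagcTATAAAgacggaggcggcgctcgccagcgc
Pcdh17: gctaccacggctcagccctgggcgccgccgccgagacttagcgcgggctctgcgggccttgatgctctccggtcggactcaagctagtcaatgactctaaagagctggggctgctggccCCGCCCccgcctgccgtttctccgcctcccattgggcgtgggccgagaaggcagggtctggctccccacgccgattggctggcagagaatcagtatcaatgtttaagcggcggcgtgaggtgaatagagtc
Pcdh20: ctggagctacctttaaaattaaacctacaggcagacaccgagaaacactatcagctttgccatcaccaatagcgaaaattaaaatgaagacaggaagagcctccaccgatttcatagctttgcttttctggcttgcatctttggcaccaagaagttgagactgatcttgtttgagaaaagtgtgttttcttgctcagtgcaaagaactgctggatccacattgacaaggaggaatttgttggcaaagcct
The Pcdh8 window holds a TATA box (TATAAA) that begins 30 bases before the start, and the Pcdh17 window a GC box (GGGCGG, here on the opposite strand) that begins 131 bases before it. The Pcdh20 window holds none of the 5 motifs searched on both strands, which were these, the E-box CANNTG, the homeodomain core TAATTA and the cAMP response element TGACGTCA. Of 32851 windows of the same length, 12.4% held the TATA box, 32.7% the GC box, 66.2% the E-box, 4.84% the homeodomain core and 1.55% the cAMP response element. Windows were found for 20 of the 31 members, and the counts in that order were 2, 7, 10, 1 and 0. These letters are a description, and a window without them says nothing of the factors.

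The proteins that cadherins work with were followed in lists chosen for their role. Of 9 catenin genes, 3 passed the joint test (Ctnna2, Ctnnal1 and Ctnnd2), 4 were called in long-projecting cells (2 higher, 2 lower; 13.1% of all genes were) and 3 in deep chandelier cells (1 higher, 2 lower; 19.1% of all genes were). Ctnna2, the neuronal alpha-catenin, was higher in long-projecting cells by 1.00 ± 0.14 (adjusted p = 0.000238), with means of 703 CPM there and 296 CPM in Martinotti cells. It was also higher in PV basket cells, by 0.80 ± 0.18 (adjusted p = 0.0224). The same held for interneuron-selective cells, by 0.64 ± 0.18 (adjusted p = 0.0358). It was lower in Martinotti than in long-projecting cells, at -1.37 ± 0.23 (adjusted p = 0.00479), and in deep chandelier cells it was at -1.15 ± 0.21 against the others (adjusted p = 0.00226). Ctnnd2, a brain relative of p120-catenin, was lower in long-projecting cells, at -0.53 ± 0.14 (adjusted p = 0.0252). For Ctnna2, the deep chandelier call was lost under type-specific dispersion (adjusted p = 0.0942). For Ctnnd2, the long-projecting call was lost under 6 of the 25 alternatives (adjusted p up to 0.0922). Beta-catenin, Ctnnb1, was not called in the joint test or for any type.

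Of the 9 measured genes of the WAVE complex 3 passed the joint test (Cyfip1, Cyfip2 and Abi1). For Abi1, the joint call was lost under 16 of the 25 alternatives (adjusted p up to 0.432), among them without interneuron-selective library 3 (adjusted p = 0.0512) and without deep chandelier library 4 (adjusted p = 0.271). Deep chandelier cells had 3 of the 9 higher and 1 lower, where 19.1% of all genes were called, with Cyfip1 at 2.00 ± 0.30 (adjusted p = 0.000743). The 4 deep chandelier libraries had 247, 3.06, 291 and 8.79 CPM of Cyfip1, so each animal held 1 high and 1 low library, and a fit without library 1 or 3 was not run. Interneuron-selective cells had 2 of the 9 lower, where 10.0% of all genes were called, with Cyfip2 at -1.49 ± 0.26 (adjusted p = 0.0036). For Cyfip2, the interneuron-selective call was lost under type-specific dispersion (adjusted p = 0.0548). Among 14 tested large atypical cadherins and calsyntenins 4 passed (Clstn2, Clstn3, Fat1 and Cdhr1). Clstn2, a synaptic calsyntenin, was higher in upper chandelier cells by 1.68 ± 0.17 (adjusted p = 0.000165) and in deep ones by 1.54 ± 0.17 (adjusted p = 0.000106), and lower in Martinotti cells, at -2.12 ± 0.23 (adjusted p = 0.000116). Clstn2 was also higher in CCK basket cells, by 0.75 ± 0.18 (adjusted p = 0.0252). It was lower in long-projecting cells, at -1.18 ± 0.16 (adjusted p = 0.000225), and in PV basket cells, at -0.95 ± 0.21 (adjusted p = 0.0227).

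Of 4 tested genes of the plakophilins and the p120 family 2 passed the joint test (Pkp2 and Arvcf), and of 5 nectins and afadin 1 did. For Pkp2, the joint call was lost under 9 of the 25 alternatives (adjusted p up to 0.362). For Arvcf, the joint call was lost under 11 of the 25 alternatives (adjusted p up to 0.245). The nectin gene, Pvrl3 (nectin-3), was higher in upper chandelier cells by 3.20 ± 0.58 (adjusted p = 0.0128) and CCK basket cells by 3.16 ± 0.58 (adjusted p = 0.00495). It was also higher in deep chandelier cells, by 2.34 ± 0.61 (adjusted p = 0.0170). Both Sst-driven types were lower, long-projecting cells at -2.94 ± 0.68 (adjusted p = 0.0103) and Martinotti cells at -4.02 ± 1.04 (adjusted p = 0.0384). For Pvrl3, the upper chandelier call was lost without upper chandelier replicate 13 (adjusted p = 0.17) and without upper chandelier replicate 14 (adjusted p = 0.0883). Of 9 shedding enzymes, which cut cadherins at the membrane, 3 passed (Adam10, Adam15 and Psenen), and 0 of 2 desmosomal cadherins did. For Adam10, the joint call was lost under 13 of the 25 alternatives (adjusted p up to 0.284), among them without upper chandelier library 1 (adjusted p = 0.0513). Over the 7 lists 16 of 52 tested genes passed, which is 30.8%, against 25.0% of all genes.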

How the data were processed

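The authors deposited expected counts per gene and cell, for 23335 genes and 584 cells. Alignment used Bowtie 0.12.7 and mm9, per the submitters' processing notes. Reads and molecular tags cannot be told apart in these values from the sources at hand. Of values above 0, 4.07% were not whole (tolerance 1e-06). No other value was used. Cells held 8574 to 707657 counts and replicates 1203737 to 12324142, so the floors and CPM of low members cover counting error only.

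Counts were summed over cells per library and per replicate, and CPM was computed from those sums. Rounded replicate sums were tested in R 4.3.3 with edgeR 4.0.16 (TMM scaling, filterByExpr by type, robust quasi-likelihood fit), in 1 fit over the 7 types with 9 residual degrees of freedom. The code was first run on simulated data with a smaller spread than these data, equal in all types. That run therefore does not show how the fit performs at the spread found here, where the coefficient of variation was 61.7%. p-values were adjusted by Benjamini-Hochberg over all 15533 genes of a comparison, with a threshold of 0.05, and SEs follow from the quasi-likelihood statistic. The members and lists were chosen with earlier results of these data known. Every member may be named; values in each replicate are given for members that passed the joint test with a type mean of at least 20 CPM. Fitted differences are not given for members with no count in a type, except that of Pcdh20 in deep chandelier cells, whose direction depended on the libraries used; these depend on the prior count. The labels do not say how libraries of an animal were drawn, so p-values measure the spread between these labelled animals. The 25 alternatives were RLE scaling, DESeq2 1.42.0, no filter on low counts, 18 labelled animals, a spread set for each type (limma 3.58.1 with quality weights), 16 fits that each left out a replicate, and 4 that left out a library; 3 of these 4 were chosen after seeing the data. Sequences and gene order come from RefSeq tables of another build than the counts and were matched by symbol.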

Additional observations from a re-analysis of the deposited data

Results flagged for a closer look

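Of 135 groups of 4 to 10 values, 16 held a value that stood apart from the rest of its type by Dixon's criterion; chance flags about 1 in 20 groups. No cause was tested.

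In the deep chandelier type, Cdh2 was at 149 CPM in library 1, where the other 3 libraries had 18.4 to 21.3. Library 4 had 95.5 CPM of Cdh19, where the others had 6.20 to 13.6, and 146 CPM of Pcdh20, where the others had 0 to 0.715. In upper chandelier library 1, Cdh11 was at 120 CPM (others 31.7 to 52.4), Pcdh9 at 1393 CPM (others 537 to 765) and Pcdh19 at 586 CPM (others 338 to 385). Upper chandelier library 5 had 70.3 CPM of Pcdh7, where the others had 40.6 to 45.8.

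Among Martinotti libraries, Pcdh9 was at 1436 CPM in library 1 (others 849 to 935), Cdh7 at 329 CPM in library 3 (others 101 to 126) and Cdh6 at 10.3 CPM in library 4, below the others at 61.1 to 68.4. The lowest of the other 3 Martinotti values of Cdh7 was still above every library of the types other than PV basket.

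In interneuron-selective cells, Cdh2 was at 194 CPM in library 1 (others 44.9 to 69.7) and Cdh8 at 295 CPM in library 2 (others 63.1 to 83.3). CCK basket library 4 had 28.2 CPM of Cdh11, below the others at 131 to 140 CPM. In long-projecting cells, Cdh4 was at 360 CPM in library 9 (others 148 to 229), and animal 18, from which it came, at 286 CPM (other animals 182 to 190.2). Long-projecting library 6 had 90.1 CPM of Cdh12, where the others had 7.44 to 27.2.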

How the results depend on the processing

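Of 71 called pairs of a member and a comparison, joint test aside, 22 passed under each of the 25 alternatives, 25 in each of the 16 fits without a replicate, and 1 changed direction; of the 17 joint calls, 12 passed under every alternative. The cause of these changes was not tested. The fitted log2 difference of Pcdh20 in deep chandelier cells ranged from -1.21 (without animal 12) to 5.85 (without animal 11) when a replicate was left out, and was -2.18 without deep chandelier library 4.

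Counts of members that moved by over 1.5 times were these. With DESeq2 the joint count was 26, Martinotti 11, PV basket 6, upper chandelier 5, upper minus deep chandelier 7, interneuron-selective minus CCK basket 2, Martinotti minus long-projecting 9, Martinotti minus interneuron-selective 9 and lineage 11. Over all genes DESeq2 called 7101 (joint), 1728 (Martinotti), 1055 (PV basket), 543 (upper chandelier) and 2720 (lineage). The reported fit called 3888, 870, 604, 296 and 1617. For the pairs, in the order given, DESeq2 called 2100, 1422, 1773 and 1523 genes, against 440, 209, 607 and 480. With 18 labelled animals the member counts were 26 (joint), 11 (PV basket), 6 (upper chandelier), 5 (upper minus deep chandelier), 1 (interneuron-selective minus CCK basket), 8 (Martinotti minus long-projecting), 7 (Martinotti minus interneuron-selective) and 11 (lineage). Over all genes that setting called 6468 (joint), 2387 (PV basket), 533 (upper chandelier) and 2375 (lineage). The pairs, in the same order, gave 1151, 730, 1195 and 901 genes. With a spread set for each type they were 1 (interneuron-selective), 11 (PV basket), 1 (deep chandelier) and 2 (Martinotti minus interneuron-selective). The member count of upper minus deep chandelier was 1 with RLE scaling and 1 without deep chandelier library 4. Over all genes 497 and 622 were called there, against 440 in the reported fit. RLE scaling also moved the share of all called genes that were higher in upper chandelier cells from 62.0% to 47.5%. Without interneuron-selective library 3 the member counts were 1 (interneuron-selective), 3 (CCK basket) and 1 (upper chandelier). Over all genes 1692, 929 and 209 were called there, against 1556, 978 and 296 in the reported fit.

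Leaving out a replicate gave 16 to 20 members in the joint test, 5 to 9 in Martinotti, 1 to 5 in interneuron-selective, 1 to 12 in CCK basket, 0 to 5 in PV basket, 7 to 14 in deep chandelier, 0 to 4 in upper chandelier and 10 to 14 in long-projecting cells. The pairs gave 0 to 3 (upper minus deep chandelier), 0 to 1 (interneuron-selective minus CCK basket), 3 to 7 (Martinotti minus long-projecting), 0 to 7 (Martinotti minus interneuron-selective) and 1 to 11 (upper chandelier minus long-projecting), and lineage 5 to 11. The highest counts in Martinotti, interneuron-selective, CCK basket and PV basket cells, in upper minus deep chandelier cells and in lineage came without deep chandelier animal 12. The lowest came without an animal of the type itself in Martinotti (animal 1), CCK basket (animal 5), PV basket (either replicate), deep chandelier (either animal) and upper chandelier cells (either animal). Over all genes the joint count was 3888, from 2174 (spread set for each type) to 7101 (DESeq2).

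No paired analysis was possible because the replicate is the animal and no animal number occurs in more than 1 type. With 2 replicates in 6 of the types, a fit without 1 of them leaves a lone replicate that is assumed to vary like the other types.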
